A study of Mus musculus with 46 samples.

Results

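The genes described here are 10 components of the insulin receptor and FoxO pathway, chosen by name: the receptors Insr and Igf1r, the adaptors Irs1, Irs2 and Irs4, the regulatory lipid kinase subunit Pik3r1, the kinases Akt1 and Akt2, and the transcription factors Foxo1 and Foxo3. They were followed through the transcriptome and the open chromatin of AgRP neurons of the mouse arcuate nucleus, a hypothalamic cell type that drives feeding. Of the 31854 genes in the RNA count table, 9 of the 10 had a row. Irs2 had none in the table used here, so its RNA was not analysed here. In the open chromatin data, peaks whose centre lay within 50 kb of a start site of these genes were taken: 82 of 123721 peaks in the feeding experiment and 55 of 67472 in the comparison of sorted nuclei.

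The mice were males that carried the NuTRAP reporter, which Cre recombinase switches on to label the ribosomes with GFP and the nuclear membrane with mCherry. Cre was driven from Agrp or, in separate mice, from Pomc, so any cell in which that locus had been active would carry the tag. All mice were on the C57BL/6J background. The AgRP mice were 6 to 11 weeks old, and an age was not given separately for the POMC mice. Fed mice ate freely and received phosphate-buffered saline, fasted mice were kept without food overnight and received the same saline, and leptin mice were fasted overnight and then injected with the hormone. RNA bound to tagged ribosomes gave 11 AgRP libraries (3 fed, 4 fasted, 4 leptin, each of 4 pooled arcuate nuclei) and 6 POMC libraries (2 of each state), and assay for transposase-accessible chromatin (ATAC-seq) of sorted AgRP nuclei gave 2 libraries of each state. A further 2 pairs of ATAC-seq libraries came from AgRP-positive and AgRP-negative nuclei sorted from the same pools of arcuate tissue of untreated mice that ate freely. Together these were 27 of the 46 samples of the series.

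Insulin and insulin-like growth factor bind receptor tyrosine kinases, which phosphorylate adaptor proteins of the IRS family. The adaptors recruit phosphatidylinositol 3-kinase through its regulatory subunit, the lipid product activates AKT, and AKT phosphorylates FOXO factors and so keeps them out of the nucleus. In AgRP neurons FOXO1 is known to raise Agrp and Npy transcription, while leptin acts on the same promoters through STAT3.

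RNA libraries held 25581041 to 54511107 counted reads, the feeding ATAC-seq libraries 8263234 to 17190963 and the sorted ATAC-seq libraries 8685497 to 11177208. Levels are given as CPM, read counts scaled to the library's total after the trimmed mean of M-values (TMM) correction, which was estimated separately among AgRP libraries, POMC libraries and each set of ATAC-seq libraries. The summed level of 7 AgRP neuron markers was 1669 to 6452 CPM in AgRP libraries and 162 to 256 CPM in POMC libraries, and that of 6 POMC neuron markers was 99.0 to 148 CPM and 1620 to 3020 CPM. In every state, AgRP replicate 4 and POMC replicate 2 stood apart: the summed level of 8 astrocyte markers was 21082 to 26850 CPM in AgRP replicate 4 against 2890 to 4570 CPM in the other AgRP libraries, and 24437 to 28095 CPM in POMC replicate 2 against 5993 to 6912 CPM. Most of this was Slc1a2, the glutamate transporter, and without it the sums were 930 to 1016 against 507 to 725 CPM and 1143 to 1287 against 717 to 812 CPM. Gfap, on the same list, was not raised in AgRP replicate 4, at 46.3 CPM fed, 34.7 CPM fasted and 39.7 CPM with leptin. The other AgRP libraries of these states spanned 40.4 to 53.3, 33.8 to 37.6 and 29.9 to 44.8 CPM. Aqp4, another marker of that list, was raised there, at 212 CPM fed, 162 CPM fasted and 164 CPM with leptin. Its other AgRP libraries spanned 87.0 to 120, 37.8 to 47.8 and 40.6 to 82.3 CPM. Tanycyte and ependymal marker sums did stand higher in AgRP replicate 4 (126 to 191 against 55.2 to 89.1 CPM). So did its oligodendrocyte sums (783 to 867 against 502 to 783 CPM), the lowest by little. Its microglia sums were the highest of each state, at 44.5 CPM fed, 42.4 CPM fasted and 39.7 CPM with leptin. The other AgRP libraries held 25.1 to 44.1, 19.5 to 21.2 and 21.5 to 25.5 CPM. In POMC replicate 2 the sums of oligodendrocytes (818 to 1044 against 468 to 576 CPM) and microglia (45.4 to 57.3 against 26.2 to 43.1 CPM) were higher. Its tanycyte and ependymal sums were too (158 to 176 against 126 to 155 CPM). These libraries are named below where a result turns on them. Other markers of non-neuronal cells were present in all 17 RNA libraries, with sums of 468 to 1044 CPM for oligodendrocytes, 106 to 202 CPM for endothelial and mural cells, 55.2 to 191 CPM for tanycytes and ependymal cells and 19.5 to 57.3 CPM for microglia.

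The promoters are shown first, because 3 adaptor genes carried the same short element. RefSeq promoters on GRCm38.p6 were found for 9 of the 10 genes (all but Insr). The insulin response sequence CAAAACA, a form bound by FOXO factors, was searched on both strands and stood at 2 places in Irs1, beginning 111 and 32 bases before the end of the sequence printed here, and once each in Irs2 (37 bases before it) and Irs4 (101 bases before it). It was present in 6.28% of all 32851 RefSeq promoters. The sequences run 5′ to 3′ on the minus strand and stop before the transcript, at chr1:82291440-82291689, chr8:11008930-11009179 and chrX:141725264-141725467. Capitals mark the element, which reads TGTTTTG in this orientation.
Irs1 promoter: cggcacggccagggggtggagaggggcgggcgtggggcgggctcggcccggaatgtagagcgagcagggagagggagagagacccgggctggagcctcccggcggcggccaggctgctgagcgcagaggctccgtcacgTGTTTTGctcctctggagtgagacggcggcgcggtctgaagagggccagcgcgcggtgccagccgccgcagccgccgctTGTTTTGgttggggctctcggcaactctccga
Irs2 promoter: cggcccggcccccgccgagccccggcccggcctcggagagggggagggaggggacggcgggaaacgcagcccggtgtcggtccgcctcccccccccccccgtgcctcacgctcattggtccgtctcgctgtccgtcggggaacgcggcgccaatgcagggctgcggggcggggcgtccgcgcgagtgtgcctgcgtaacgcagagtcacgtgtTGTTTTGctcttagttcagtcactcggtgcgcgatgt
Irs4 promoter: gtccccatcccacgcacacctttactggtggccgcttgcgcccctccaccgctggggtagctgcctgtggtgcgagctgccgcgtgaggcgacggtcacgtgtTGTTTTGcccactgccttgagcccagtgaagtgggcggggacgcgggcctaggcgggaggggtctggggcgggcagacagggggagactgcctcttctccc

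The Irs2 and Irs4 elements sat inside a run of 17 identical bases, GTCACGTGTTGTTTTGC, found in 2 of the 32851 promoters (0.00609%), those of Irs2 and Irs4. It holds CACGTG, the core of the E-box bound by basic helix-loop-helix factors, next to the insulin response sequence. Irs1 and Irs2 shared the first 10 of these bases, GTCACGTGTT, which occurred in 25 promoters (0.0761%). These shared runs were looked for after the sequences had been seen. The fuller FOXO element GTAAACA was present in the Akt1 promoter, 161 bases before the RefSeq start, against 3.65% of all promoters, and the STAT element TTCNNNGAA in that of Akt2, 160 bases before, against 8.30%. A match of letters is a description of the window and not a bound site.

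Among the 9 genes with RNA, Irs4 was by far the most abundant in AgRP neurons of fed mice. Levels between genes are given as CPM per kilobase of transcript (mean ± SD over 3 fed libraries). Irs4, an adaptor known from hypothalamus, stood at 264 ± 46.4, at percentile 99.5 of the 13401 genes tested. Akt1 followed at 60.3 ± 5.33, Foxo1 at 28.1 ± 4.27 and Pik3r1 at 18.0 ± 2.82. The libraries of Irs4, Akt1, Foxo1, Pik3r1 and Foxo3 did not overlap from one gene to the next in this order. Foxo3 stood at 11.3 ± 2.49, Insr at 10.4 ± 0.84, Igf1r at 8.54 ± 3.80 and Akt2 at 6.87 ± 1.03, and each of these overlapped its neighbour. Irs1 was lowest at 3.63 ± 0.38, below every Akt2 library and at percentile 32.8. Adaptor RNA thus came mainly from Irs4 rather than Irs1, with Irs2 not measured. In fed POMC libraries Irs4 (172 ± 50.8 CPM per kilobase, n = 2) and Akt1 (68.2) again led, but Foxo1 stood at 10.6, seventh of 9, and the genes from Foxo3 to Akt2 overlapped their neighbours.

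**Figure D1:**
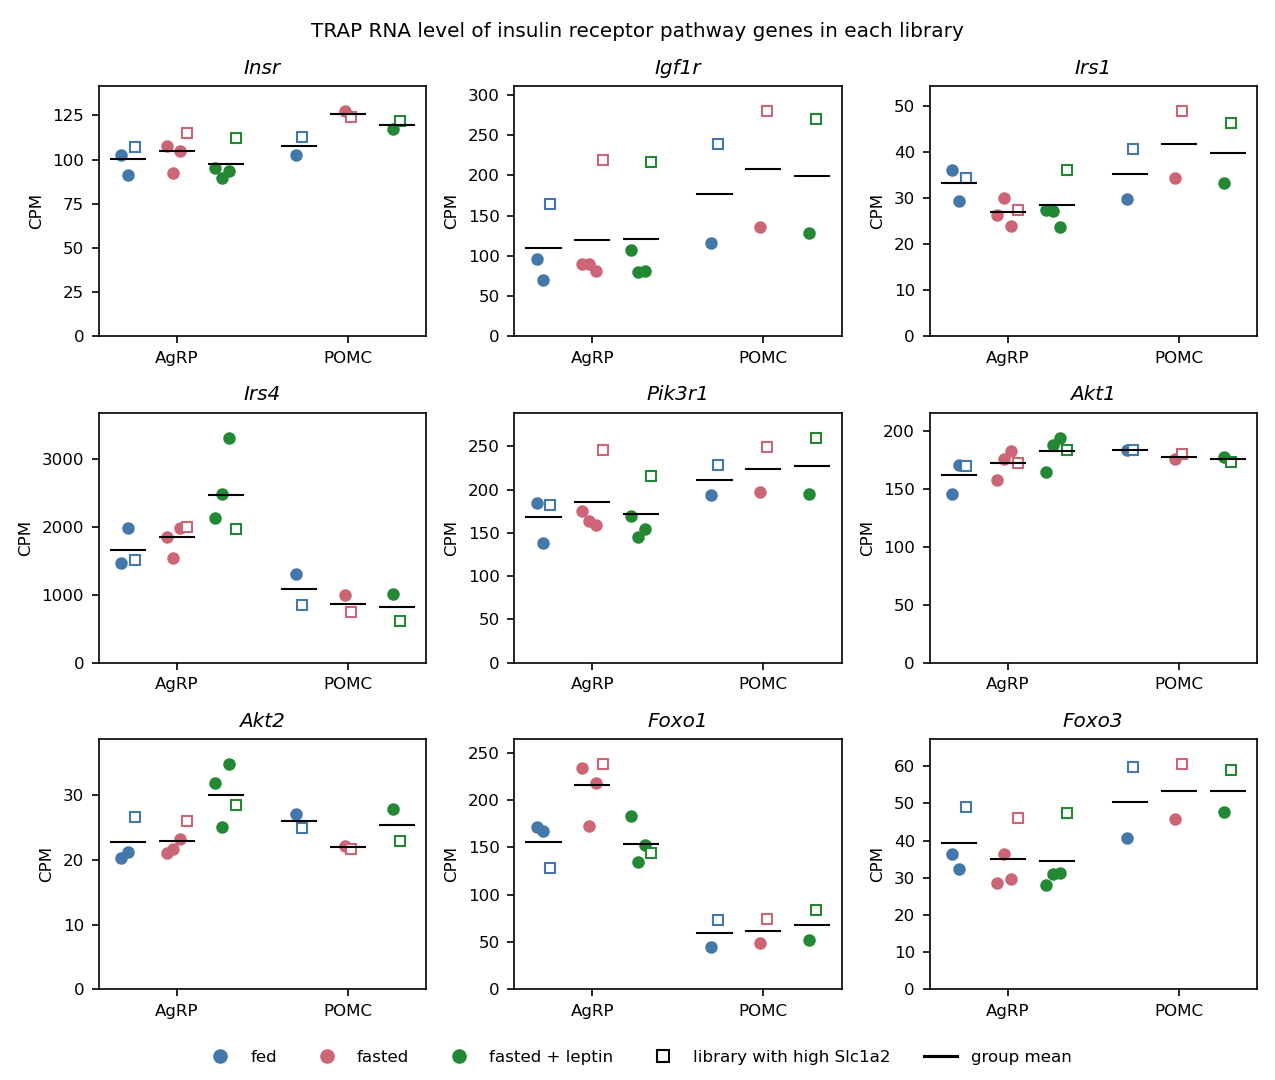
Level of each of the 9 genes in every RNA library, in CPM on the vertical axis, for AgRP and POMC libraries that were fed (blue), fasted (red) or fasted and given leptin (green). Each point is 1 library, open squares are AgRP replicate 4 and POMC replicate 2 with high Slc1a2, and bars are group means. Foxo1 lies at 129 to 238 CPM in AgRP libraries and at 45.2 to 83.4 CPM in POMC libraries.

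The contrast of fed AgRP with fed POMC neurons picked out Foxo1. Foxo1 stood at 172, 168 and 129 CPM in the fed AgRP libraries and at 45.2 and 73.1 CPM in the fed POMC libraries. It was 2.64-fold higher in AgRP neurons (log2 fold change 1.40, standard error (SE) 0.239, Benjamini-Hochberg false discovery rate (FDR) 0.0409 in edgeR's quasi-likelihood test). It was the only one of the 9 genes called in this contrast, at FDR below 0.05 and a log2 fold change beyond 0.5 either way, rules under which 2.17% of all genes tested were called. With AgRP replicate 4 and POMC replicate 2 left out, which leaves 1 POMC library that is assumed to vary like the AgRP ones, the log2 difference was 1.90 (FDR 0.00122). Without AgRP fed replicate 1, AgRP fed replicate 3 or POMC fed replicate 1, Foxo1 remained higher but was no longer called (FDR 0.196, 0.110 and 0.124). The comparison is of tagged RNA as a share of each library, so fewer cells of a type and less RNA per cell cannot be told apart.

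The other 8 genes were not called in the fed contrast. Irs4 stood at 1463, 1984 and 1504 CPM in fed AgRP libraries against 1300.0 and 851 CPM in fed POMC libraries (log2 fold change 0.62, FDR 0.430). Igf1r differed by -0.69 (FDR 0.550) and Foxo3 by -0.36, and both were highest in AgRP replicate 4 and POMC replicate 2. When all 3 states entered with the state as a covariate, 3 genes were called, against 13.7% of all genes. Foxo1 (1.46, FDR 3.61e-06) and Irs4 (1.10, FDR 0.000314) were higher in AgRP neurons and Foxo3 lower (-0.54, FDR 0.00735). That fit counts libraries with the same replicate number in different states as separate, although they deviated together.

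Fasting did not move any of the 9 genes past the rule in the test without pairing, where 3.89% of all genes were called. Foxo1 came closest. Its fed libraries stood at 172, 168 and 129 CPM and its fasted libraries at 234, 173, 218 and 238 CPM, so every fasted library lay above every fed one, the nearest by little; the libraries of 18.3% of all genes tested did not overlap in this contrast. The log2 fold change was 0.48 (SE 0.145, 1.39-fold, FDR 0.0867). Libraries with the same replicate number deviated together, and with the replicate number as a block Foxo1 rose 1.47-fold (0.56, SE 0.0915, FDR 0.00114), higher in 3 of 3 pairs by 0.38 to 0.89, while 6.94% of all genes were called. Foxo1 was then the only one of the 9 called. With AgRP replicate 4 left out, the log2 difference was 0.28 (FDR 0.274) without the block and 0.39 (FDR 0.00104) with it, which is under the fold threshold. Without fed replicate 4 alone it was 0.34 (FDR 0.347), and without fasted replicate 2 it was 0.57 (FDR 0.0481). Marker sums moved with the state too. The AgRP neuron markers, a list that holds Agrp and Npy, summed to 1669 to 2349 CPM in fed and 2966 to 6452 CPM in fasted libraries, with no overlap. The sums for oligodendrocytes, microglia and endothelial and mural cells were lower in the fasted library in 3 of 3 pairs, and their part in the fasting results was not tested.

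**Figure D2:**
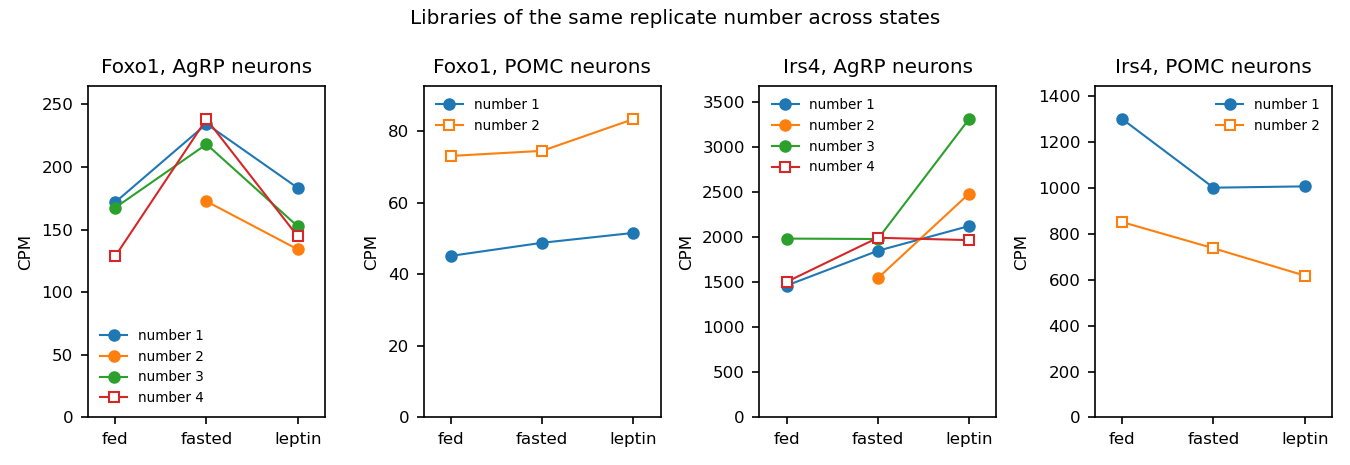
Level of Foxo1 and Irs4, in CPM, in AgRP and POMC libraries joined by replicate number from fed through fasted to leptin. Each line is 1 replicate number, and AgRP number 2 has no fed library. Foxo1 in AgRP neurons is higher in the fasted than in the fed library in 3 of 3 pairs and lower after leptin in 4 of 4, while Irs4 in AgRP neurons is higher after leptin than after fasting in 3 of 4.

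Leptin after the fast left Foxo1 at 183, 134, 153 and 145 CPM. These values overlapped the fasted libraries, since leptin replicate 1 was above fasted replicate 2, but within each replicate number the leptin library was lower, in 4 of 4 pairs. The log2 fold change was -0.49 (SE 0.134, FDR 0.108), and with the block -0.49 (SE 0.0812, FDR 0.00218), just under the fold threshold. Against fed libraries the leptin libraries differed by -0.01 (FDR 0.979). The summed AgRP neuron markers were also lower in the leptin than in the fasted library in 4 of 4 pairs. The summed POMC neuron markers were higher in 4 of 4, and the part of either in the Foxo1 values was not tested. None of the 9 genes was called in the contrast of leptin with fasted, where 1.83% of all genes were, and 2 had an unadjusted p under 0.05.

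Irs4 and Akt2 had their highest AgRP values after leptin. Irs4 stood at 1849, 1545, 1980 and 1993 CPM in fasted libraries and at 2123, 2482, 3309 and 1967 CPM in leptin libraries. Replicate 4 was the exception, with its leptin library slightly below its fasted library. The log2 difference from fasted was 0.42 (FDR 0.582), and 0.40 (FDR 0.0398) with the block. Against fed it was 0.59 (SE 0.215, FDR 0.123), where 5.48% of all genes were called; with the block Irs4 rose 1.54-fold (0.62, SE 0.120, FDR 0.0026), higher in 3 of 3 pairs, against 8.57% of all genes called. With AgRP replicate 4 left out of the blocked fit, Irs4 was also called against fasted (0.54, FDR 0.00093).

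Akt2, the isoform known for insulin-stimulated glucose uptake, stood at 20.3, 21.3 and 26.6 CPM in fed libraries, at 21.1, 21.7, 23.2 and 26.1 CPM in fasted libraries and at 31.9, 25.1, 34.8 and 28.5 CPM in leptin libraries. The fasted values covered the same range as the fed ones, and 3 of the 4 leptin libraries lay above all of both. The log2 difference of leptin from fasted was 0.38 (SE 0.129, FDR 0.253; with the block 0.39, FDR 0.0249), higher in 4 of 4 pairs, and from fed 0.41 (SE 0.141, FDR 0.0992; with the block 0.48, FDR 0.0056). It passed both thresholds against fed once AgRP replicate 4 was left out (0.54, FDR 0.0323). Akt1, the broadly expressed isoform, stayed between 146 and 194 CPM in all AgRP libraries. It differed from fed by 0.10 after fasting, and its difference after leptin had an FDR of 0.0195 in the blocked fit at a log2 value of only 0.17.

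Neither receptor was called between states, with the block or without it. Insr stood at 102, 91.2 and 107 CPM in fed libraries, 108, 92.1, 105 and 115 CPM in fasted libraries and 95.2, 89.3, 93.7 and 112 CPM in leptin libraries. All 3 groups overlapped (fasted against fed 0.08, SE 0.113, FDR 0.798). Within pairs the fasted library was higher than the fed one in 3 of 3, by 0.07 to 0.20 (0.13, SE 0.0564, FDR 0.126 with the block), and leptin was lower than fasted in 4 of 4 (-0.11, FDR 0.272 with the block). Igf1r spread much more, from 69.3 to 219 CPM, and the high values were those of 1 replicate in all 3 states: AgRP replicate 4 held 164 to 219 CPM and the other libraries 69.3 to 107 CPM. Within pairs Igf1r was higher after leptin than fed in 3 of 3, by 0.16 to 0.40 (0.24, SE 0.0895, FDR 0.0619 with the block). Pik3r1 and Foxo3 also stood higher in replicate 4, at 183 to 246 against 138 to 185 CPM and at 46.1 to 49.0 against 28.0 to 36.3 CPM. In POMC replicate 2 the same 3 genes were higher than in replicate 1 in every state. In that replicate Foxo1 was also higher (73.1 to 83.4 against 45.2 to 51.6 CPM), as was Irs1 (40.6 to 48.9 against 29.7 to 34.4 CPM), and Irs4 was lower (618 to 851 against 1001 to 1300.0 CPM). Slc1a2, Aqp4 and the glial marker sums given above moved with these values, while Gfap in AgRP replicate 4 did not. The part of glial RNA in these values was not tested.

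Irs1 stood at 36.2, 29.4 and 34.3 CPM in fed libraries and at 26.2, 30.1, 24.0 and 27.5 CPM in fasted libraries. The groups overlapped only through fed replicate 3 and fasted replicate 2. The log2 difference was -0.29 (SE 0.151, FDR 0.326), lower in 3 of 3 pairs, and with the block -0.31 (SE 0.102, FDR 0.0437), which does not reach the fold threshold. In leptin libraries Irs1 stood at 27.3, 27.2, 23.6 and 36.1 CPM, with replicate 4 back among the fed values.

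**Figure D3:**
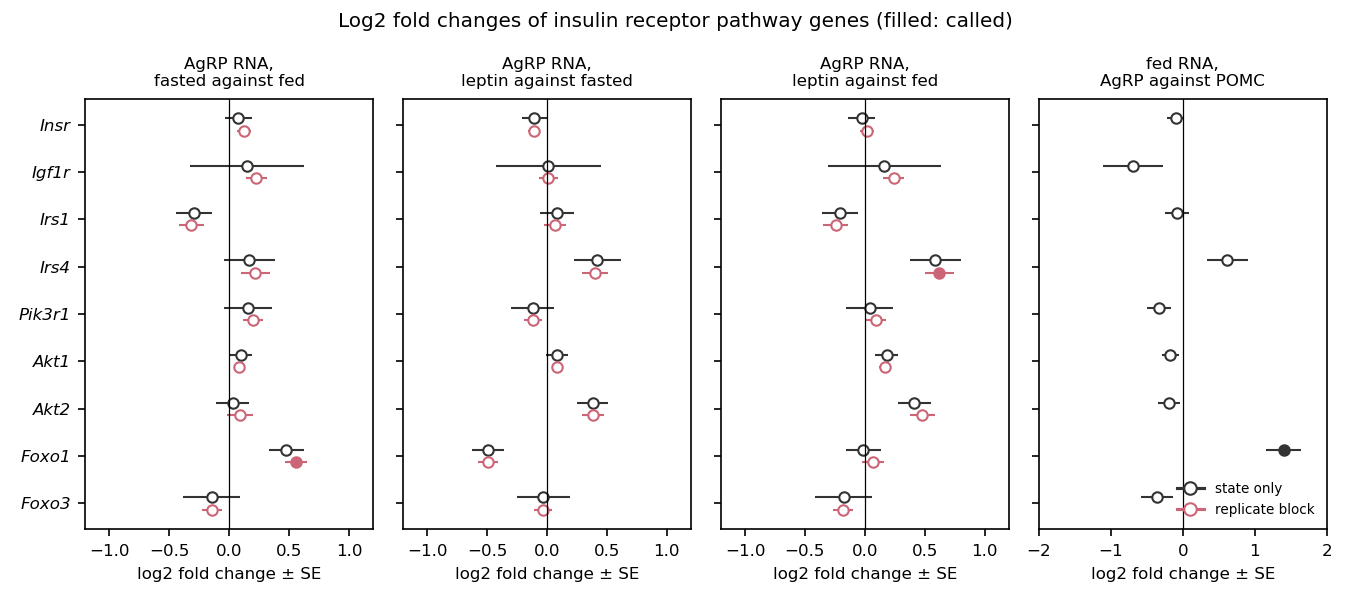
Log2 fold change of each gene with its standard error as a bar, in 3 contrasts of AgRP libraries and in fed AgRP against fed POMC libraries, from the fit with the state only (dark) and with the replicate number as a block (red, AgRP contrasts only). Filled points are called. Foxo1 is filled on fasting in the blocked fit (0.56) and in AgRP against POMC neurons (1.40), and Irs4 in the blocked contrast of leptin with fed (0.62).

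None of the 9 genes was called in POMC neurons for either contrast, where 0.00% of all 13412 genes were called by edgeR. Unadjusted p was under 0.05 for 282 and 151 genes, among them 0 of these genes in both contrasts, and DESeq2 called 0 of them. Foxo1 stood at 45.2 and 73.1 CPM fed, 48.8 and 74.5 CPM fasted and 51.6 and 83.4 CPM with leptin, so the replicates differed more than the states. Insr stood at 102 and 113 CPM fed and at 128 and 124 CPM fasted (0.23). Irs1 differed by 0.25, and Irs4 by -0.30 after fasting, from 1300.0 and 851 CPM to 1001 and 737 CPM. In the test of whether neuron types differ in response, none of the genes was called, against 0.164% of all genes for fasting and 0.0819% for leptin. With the block, Irs1, which differed between the POMC replicates in every state, was called for fasting (AgRP minus POMC -0.56, SE 0.144, FDR 0.0218, against 6.22% of all genes) and Foxo1 for leptin (-0.61, SE 0.128, FDR 0.0366, against 0.759%). Without the block the values were alike in size but far from the threshold (-0.55, FDR 0.627, and -0.62, FDR 1.00).

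The rest of the pathway was held in a list of 52 further insulin signaling genes, 42 of which passed the 1 CPM filter in AgRP libraries. After fasting 0 were called, with a median log2 fold change of -0.022 beside 0.017 for all genes. With the block Igfbp3, a carrier protein of insulin-like growth factor, rose (0.52, FDR 0.0172). After leptin 1 of 42 was called, beside 1.83% of all genes in either direction and 1.19% higher, so the count was near the background. It was Ptpn1, the phosphatase that dephosphorylates the insulin receptor and the leptin receptor kinase. Ptpn1 stood at 39.1 to 41.8 CPM fed, 41.5 to 46.4 CPM fasted and 53.7 to 71.9 CPM with leptin. Every leptin library thus lay above all others (against fasted 0.52, SE 0.0813, FDR 0.0072, and against fed 0.66, FDR 0.0018). Leptin and fasted libraries did not overlap for 6.16% of all genes tested. The count of list genes called was 0 without fasted replicate 2 or leptin replicate 3. The list's median was -0.009 beside -0.014 for all genes.

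Of 33 genes known as FOXO targets, 26 were tested, and 4 rose and 0 fell on fasting, where 2.82% of all genes rose. The list had a median log2 fold change of 0.129 beside 0.017 for all genes. It was chosen with earlier results of these data known. Its counts and medians, here and after leptin, are thus descriptions and not an independent test. The genes called were Cdkn1a, the cell cycle inhibitor p21, Nfil3, a basic leucine zipper repressor, Cited2, a coactivator-binding protein, and Trib1, a pseudokinase. Cdkn1a stood at 14.1 to 20.7 CPM fed, 90.8 to 126 CPM fasted and 64.1 to 95.3 CPM with leptin, a 6.13-fold rise on fasting (2.61, FDR 0.000139). Nfil3 rose by 1.58 (FDR 0.000594), Cited2 by 0.65 (FDR 0.00772) and Trib1 by 0.61 (FDR 0.0425) on the log2 scale, and without fed replicate 4 the count was 2. With the block 7 were called, all higher, beside 4.40% of all genes higher, the additional genes being Txnip, Agrp and Npy (0.70, 1.64 and 1.57). Agrp and Npy are also in the list of AgRP markers, and many of these genes answer to other regulators besides FOXO.

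After leptin 1 FOXO target fell and 0 rose, where 0.634% of all genes fell, with a median of -0.039 beside -0.014. Cited2 stood at 20.3 to 25.9 CPM fed, 31.4 to 37.9 CPM fasted and 15.3 to 19.8 CPM with leptin. All 4 leptin libraries lay below every fed and every fasted library (against fasted -0.99, FDR 0.00063). As given above, leptin and fasted libraries did not overlap for 6.16% of all genes tested. In POMC neurons 0 of the list were called in either contrast. In the fit without the block the difference between neuron types was called for Cdkn1a and Nfil3 on fasting (0.164% of all genes) and for Cited2 on leptin (0.0819%). Cited2 was not called there once AgRP replicate 4 and POMC replicate 2 were left out.

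Genes whose log2 CPM ran most like Foxo1 over the 11 AgRP libraries were Etv5 (Pearson r 0.948), Map9 (0.932) and Ammecr1 (0.924), and most like Insr were Acpp (0.958), E130308A19Rik (0.949) and Tmem104 (0.944). These are descriptions over libraries that share states and replicate numbers. Among the 9 genes themselves Igf1r and Pik3r1 ran most alike (0.93), then Insr and Pik3r1 (0.89).

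In open chromatin, the loci of these genes were compared first between AgRP-positive and AgRP-negative arcuate nuclei of fed mice. Of 55 peaks 7 were more open and 11 less open in AgRP-positive nuclei, 32.7% beside 39.6% of all peaks (23.9% more and 15.6% less open). The share called was thus no higher than the background. Scaling by library size alone shifted the median of all peaks by 0.163 on the log2 scale and gave 8 more and 7 less open peaks near these genes (over all peaks 18218 and 7303, beside 15926 and 10405). The count was 9 without AgRP-negative replicate 1. With the sorted pool as a block the counts were 8 and 13. There were 6 peaks called whichever library was left out: the upstream Irs4 peak, the Insr peak at 48.2 kb, the Irs1 start, the Irs2 peaks at 42.9 and 47.9 kb and the Pik3r1 peak 9.84 kb upstream. Fold changes below are log2 values of edgeR's quasi-likelihood test on peak counts. Positions are distances of the peak's centre from the start site of the gene in mm10, negative upstream. Annotated features are from GENCODE. The genes not placed below lie at chr7:67952827-68233668 (Igf1r, plus strand), chr1:82233101-82291416 (Irs1, minus), chr8:10984681-11008458 (Irs2, minus), chr13:101680563-101768217 (Pik3r1, minus), chr12:112653821-112674884 (Akt1, minus), chr7:27591552-27640826 (Akt2, plus) and chr10:42181841-42276755 (Foxo3, minus).

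Irs4, on the minus strand of chromosome X at chrX:141710998-141725263, had the peak with the greatest difference. This peak, in intergenic sequence 9.45 kb upstream, held 2.46 and 2.60 CPM in AgRP-negative and 20.0 and 26.6 CPM in AgRP-positive nuclei, 9.17-fold more (3.20, SE 0.282, FDR 3.07e-27). The peak at the Irs4 start was also more open, at 33.6 and 26.8 CPM against 39.3 and 46.2 CPM (0.51, FDR 0.00303), though not without AgRP-negative replicate 2 or AgRP-positive replicate 2. In the feeding experiment the same upstream region held 38.2 and 28.1 CPM fed, 15.7 and 13.7 CPM fasted and 16.1 and 23.4 CPM with leptin. Both fasted libraries lay far below both fed ones (-1.15, SE 0.239, FDR 0.00154). The Irs4 start lost signal as well, from 56.0 and 51.8 CPM to 38.0 and 37.4 CPM (-0.51, FDR 0.0229), although Irs4 RNA did not pass the test on fasting (0.17). The central 300 bases of the upstream peak, chrX:141734657-141734956 on mm10, are given on the minus strand because they mark the region that differed most between the nuclei. None of the 4 motifs searched (FOXO, insulin response, STAT and AP-1) is in this window.
Irs4 upstream peak: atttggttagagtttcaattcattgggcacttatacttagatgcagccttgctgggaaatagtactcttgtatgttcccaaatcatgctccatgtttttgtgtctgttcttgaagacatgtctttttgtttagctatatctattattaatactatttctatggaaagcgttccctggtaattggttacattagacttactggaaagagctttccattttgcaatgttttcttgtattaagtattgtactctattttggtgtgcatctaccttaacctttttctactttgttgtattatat

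Insr, at chr8:3122061-3279617 on the minus strand, had 2 intronic peaks called in sorted nuclei. The one 48.2 kb into the gene held 1.97 and 2.96 CPM in AgRP-negative and 9.50 and 11.6 CPM in AgRP-positive nuclei (2.09, SE 0.344, FDR 1.98e-08). The other, 32.4 kb into the gene, held 2.58 and 2.13 CPM against 5.86 and 5.33 CPM (1.24, FDR 0.00812). On fasting the latter region opened further, from 6.08 and 9.80 CPM to 15.4 and 14.3 CPM (0.83, SE 0.282, FDR 0.0321), and leptin libraries held 16.4 and 15.1 CPM. An intergenic peak 44.8 kb upstream rose from 0.37 and 0.58 CPM to 3.25 and 2.49 CPM (2.50, SE 0.561, FDR 0.00271). Insr RNA had differed by 0.08 in the same contrast. The intronic peak is shown because it alone, among the peaks near these genes that opened on fasting, held the FOXO element, at chr8:3247208-3247507 on mm10. It is given on the minus strand, with TGTTTAC (FOXO) and TGATTCA (AP-1, the element TGANTCA bound by FOS and JUN proteins) in capitals.
Insr intron peak: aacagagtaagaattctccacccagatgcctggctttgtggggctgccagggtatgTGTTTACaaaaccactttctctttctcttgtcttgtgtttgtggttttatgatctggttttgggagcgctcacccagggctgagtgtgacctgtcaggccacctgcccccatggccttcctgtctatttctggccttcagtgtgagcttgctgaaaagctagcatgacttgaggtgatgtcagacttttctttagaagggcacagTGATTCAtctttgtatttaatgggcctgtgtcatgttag

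**Figure D4:**
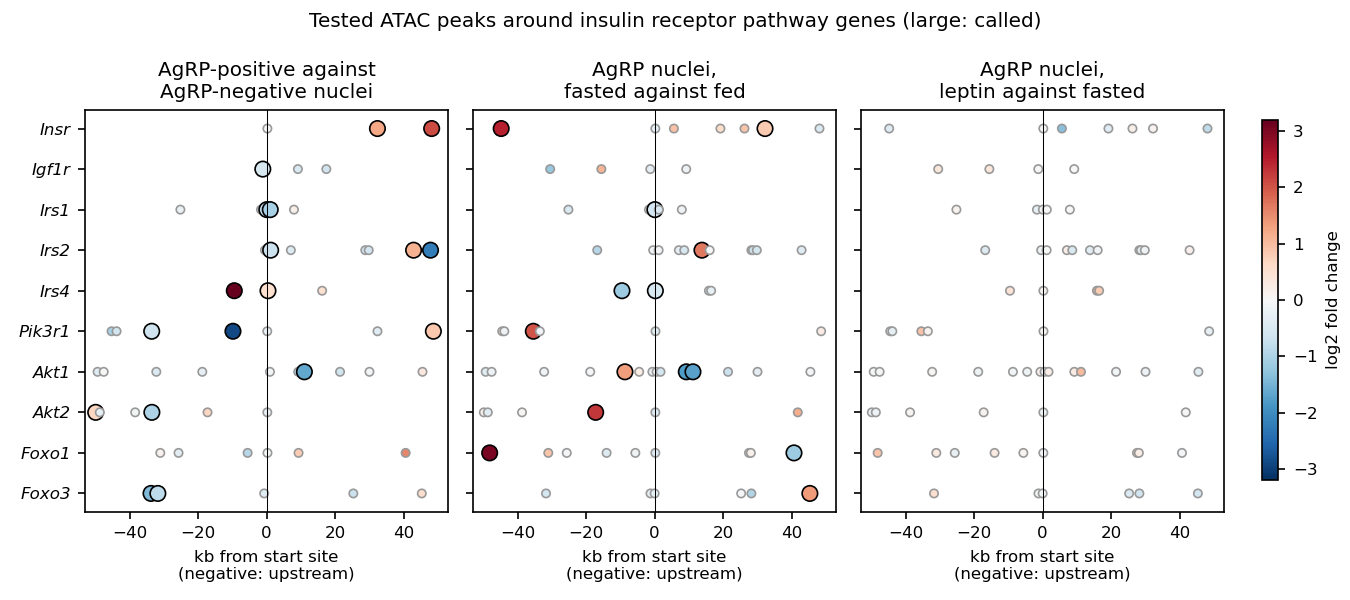
Tested ATAC-seq peaks within 50 kb of a start site, 1 gene a line, at their distance from the start in kilobases (negative upstream), for the 3 comparisons of nuclei. Colour gives the log2 fold change, and large points outlined in black are called. The deepest red is the Irs4 peak 9.45 kb upstream in AgRP-positive nuclei (3.20), and 0 of 72 points are large for leptin against fasted.

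The adaptor Irs1 had a less open start in AgRP-positive nuclei. Its start-site peak held 110.15 and 96.2 CPM in AgRP-negative and 57.8 and 62.0 CPM in AgRP-positive nuclei (-0.78, SE 0.119, FDR 1.08e-09), and on fasting it closed from 67.5 and 57.02 CPM to 40.4 and 42.0 CPM (-0.59, SE 0.160, FDR 0.00979). Leptin left it at 38.7 and 43.3 CPM. Between sorted nuclei 8 of the 10 start-site values were below 0 (median -0.19, 2 called lower and 1 higher). Of all 10559 protein-coding start-site peaks, 78.1% were below 0 (median -0.20, 1211 called lower and 195 higher). Near Irs2 a peak 42.9 kb downstream of the start was more open in AgRP-positive nuclei (5.91 and 5.45 CPM against 10.0 and 14.7 CPM, 1.13, FDR 0.000175). Peaks 1.17 and 47.9 kb downstream were less open (-0.68 and -2.24). An Irs2 intron peak 13.8 kb from the start opened on fasting from 0.74 and 1.23 CPM to 3.44 and 3.30 CPM (1.68, FDR 0.0104). The Igf1r peak centred 1.12 kb upstream, with its nearest edge 144 bases from the GENCODE start, was less open in AgRP-positive nuclei. This peak covers the RefSeq promoter of Igf1r, chr7:67952007-67952256. It held 136 and 121 CPM in AgRP-negative and 91.5 and 85.7 CPM in AgRP-positive nuclei (-0.54, FDR 1.29e-05). With library size alone the value was only -0.37, and 0 of 4 Igf1r peaks were called on fasting.

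Around Pik3r1, an intergenic peak 35.5 kb upstream opened on fasting from 2.61 and 1.80 CPM to 6.12 and 10.9 CPM (2.02, SE 0.428, FDR 0.00181). With leptin it held 16.03 and 16.5 CPM, above both fasted libraries. In leptin against fasted, 0 of 6 Pik3r1 peaks were called without the block and 1 with it. A peak 9.84 kb upstream of Pik3r1 was nearly closed in AgRP-positive nuclei, at 0.36 and 0.58 CPM against 3.94 and 3.20 CPM in AgRP-negative nuclei (-2.88). Akt1 had a peak 9.25 kb downstream of the start that closed on fasting, from 8.81 and 5.91 CPM to 2.23 and 1.80 CPM (-1.81, SE 0.365, FDR 0.00124), and another at 11.2 kb that fell from 1.99 and 1.51 CPM to 0.45 and 0.56 CPM (-1.73, FDR 0.0416). One more, 8.68 kb upstream, opened (1.34, FDR 0.0158). For Akt2, a peak 17.2 kb upstream, in an exon of the neighbouring gene 2310022A10Rik, rose from 1.12 and 4.61 CPM to 13.7 and 17.7 CPM (2.26, SE 0.377, FDR 0.000269). With leptin it held 18.3 and 15.5 CPM.

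At Foxo1, on chromosome 3 at chr3:52268336-52353221, 0 of 6 peaks were called between sorted nuclei, although the RNA was higher in AgRP than in POMC neurons. An intronic peak 40.7 kb into the gene came nearest (1.55, FDR 0.0714), and was called with the block. On fasting that peak closed from 3.97 and 3.68 CPM to 1.59 and 1.80 CPM (-1.15, SE 0.385, FDR 0.0306). A peak 48.2 kb upstream, in an intron of Gm37202, opened from 0.12 and 0.22 CPM to 1.15 and 1.93 CPM (3.02, SE 0.831, FDR 0.00993) and held 2.29 and 3.46 CPM with leptin. The counts behind the fed values of this peak are low. The Foxo3 intron peak at 45.4 kb rose from 3.60 and 4.04 CPM to 11.9 and 8.15 CPM (1.37, FDR 0.00561).

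In all, 14 of 72 tested peaks were called on fasting, 8 more and 6 less open, 19.4% beside 27.0% of all peaks (18.1% more and 8.88% less open). Called whichever library was left out were 5: Akt1 at 9.25 kb, Akt2 17.2 kb upstream, Insr 44.8 kb upstream, Irs4 9.54 kb upstream and Pik3r1 35.5 kb upstream. The other 9, among them the starts of Irs1 and Irs4, both Foxo1 peaks and the Insr intron, lost the call in at least 1 such fit but kept their direction. The Akt1 peak at 11.2 kb was called in 0 of the 4 such fits that tested it, the Irs4 start and the Insr intron in 1 of 6, the Foxo1 intron peak in 2 of 6 and the Irs1 start and the upstream Foxo1 peak in 3 of 6. The count was 7 without fasted replicate 1 and 8 without fasted replicate 2 or fed replicate 1. With the block 10 peaks were called more and 7 less open, 23.6% beside 32.1% of all peaks. In leptin against fasted libraries 0 of 72 were called by edgeR, beside 3.08% of all peaks, with 5 at an unadjusted p under 0.05 and 0 called by DESeq2. With the block 1 was called, beside 5.75% of all peaks. At the 10 start sites themselves, 9 of 10 fasted-fed values were below 0 (median -0.34, 2 called lower), as were 86.7% of all 10761 protein-coding start-site peaks (median -0.23). Of the 55 sorted-nuclei peaks 48 (87.3%) overlapped a feeding peak, and 50 of the 82 feeding peaks (61.0%) overlapped a sorted one. At 5 regions the peak was called in both experiments: Irs4 start and upstream, Irs1 start, the Insr intron at 32.3 kb and Akt1 at 11.2 kb. These were 5 of the 49 overlapping pairs of peaks tested in both (10.2%), beside 12.5% of 56343 such pairs over all peaks, so being called in both was no more frequent here than elsewhere. Of the 5, the call on fasting held whichever library was left out only at the upstream Irs4 peak. The Irs4 peaks were more open in AgRP-positive nuclei and less open on fasting, the Insr peak was more open in both, and the Irs1 and Akt1 peaks less open in both.

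**Figure D5:**
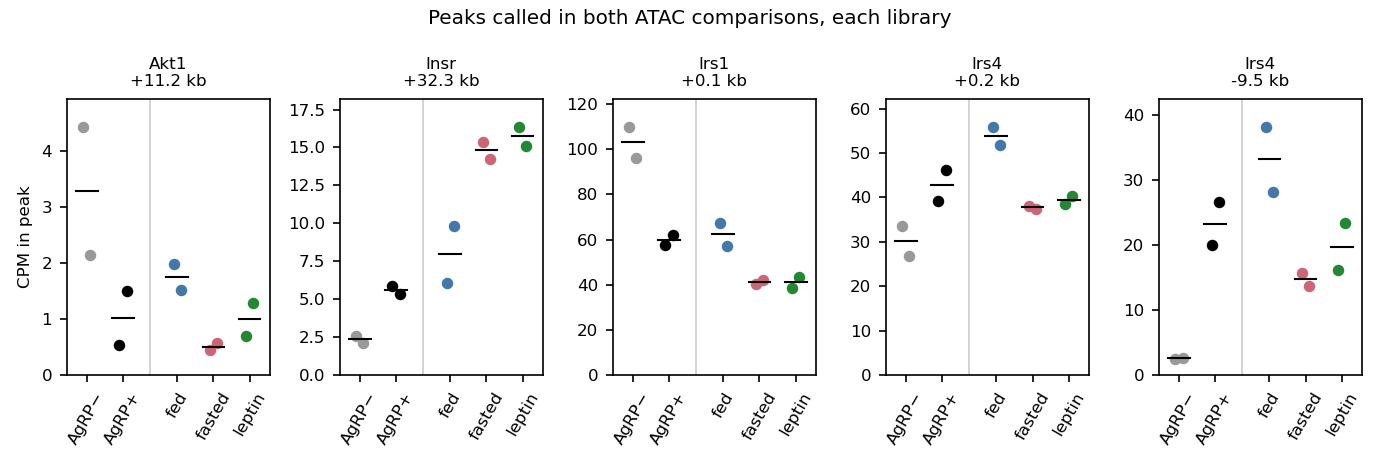
Signal in each ATAC-seq library, in CPM, at the 5 regions called both between sorted nuclei (left of the grey line) and between fasted and fed AgRP nuclei (right); each point is 1 library and bars are means. The Irs4 upstream peak is at 2.46 and 2.60 CPM in AgRP-negative nuclei, 28.1 and 38.2 CPM in fed and 13.7 and 15.7 CPM in fasted AgRP nuclei.

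The peaks that opened on fasting shared a sequence feature, which was looked at after the calls had been seen. The AP-1 element was in the central 300 bases of 8 of 8 peaks called more open, 0 of 6 called less open and 13 of 58 not called. Over all peaks the shares were 71.1% of 18517, 5.43% of 9068 and 25.8% of 74619, so most opened peaks elsewhere held the element too. The FOXO element was in 1 of 8 and the insulin response sequence in 1 of 8 of the opened peaks, with shares of 4.91% and 9.50% over all opened peaks. The 31 bases around each AP-1 element are given on the plus strand of mm10 with the element in capitals. Of the 8 sites, Insr has an intronic and an upstream one.
Akt1, chr12:112683541-112683571: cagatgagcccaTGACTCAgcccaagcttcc
Akt2, chr7:27574293-27574323: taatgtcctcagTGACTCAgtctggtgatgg
Foxo1, chr3:52220143-52220173: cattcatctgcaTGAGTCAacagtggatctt
Foxo3, chr10:42231278-42231308: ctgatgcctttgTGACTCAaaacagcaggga
Insr, chr8:3247228-3247258: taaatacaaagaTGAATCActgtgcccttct
Insr, chr8:3324458-3324488: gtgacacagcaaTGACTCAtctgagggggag
Irs2, chr8:10994642-10994672: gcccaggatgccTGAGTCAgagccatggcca
Pik3r1, chr13:101803620-101803650: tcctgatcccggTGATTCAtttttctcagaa

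As printed, the core reads TGACTCA at Akt1, Akt2, Foxo3 and the upstream Insr peak and TGAGTCA at Foxo1 and Irs2, which is the same element read from the other strand. TGAATCA at the Insr intron and TGATTCA at Pik3r1 are likewise reverse complements of each other. The 8 sites thus had 2 forms, TGACTCA at 6 and TGATTCA at 2. In the Foxo3 window an insulin response sequence on the plus strand begins at the last bases of the AP-1 element, so the 2 matches overlap. In the sorted nuclei the AP-1 element was in 3 of 7 peaks more open and 0 of 11 less open in AgRP-positive nuclei, beside 37.5% and 6.73% of all such peaks.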

How the data were processed

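Tagged-ribosome RNA and ATAC-seq peak counts of AgRP and POMC neurons were analysed. The authors made the deposited count tables by aligning RNA reads with HISAT2 and counting them per gene with featureCounts (Subread), and by aligning ATAC-seq reads with Bowtie2, calling peaks with MACS2 and counting reads in merged peaks with bedtools, on mm10, per the labels' processing notes, which name edgeR too (versions not given in the sources used here). The counts are raw whole numbers. RNA libraries were made without strand information. The authors counted on an annotation altered to hold fewer overlapping transcripts, and genes that still overlap cannot be told apart by strand. Fed AgRP replicate 2 was not analysed here.

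Counts were fitted with edgeR 4.0.16 in R 4.3.3 (quasi-likelihood F test, TMM scaling, mean over 1 CPM, state as the only term, 1 model for the 3 states). The Benjamini-Hochberg adjustment (FDR) ran over every gene or peak that passed the filter, and a gene or peak was called at FDR under 0.05 and a log2 fold change beyond 0.5. Pools are the replicates, so p-values measure the spread between pools. DESeq2 1.42.0, other scalings, no filter, other windows, a replicate block and leaving out libraries were the alternatives. Intervals of counting error are not given, since reads are not independent molecules. Fits were tested on simulated data.

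Whether replicate numbers pair libraries was checked by the correlation of their deviations from the group means. In AgRP RNA the same-number r was 0.536 to 0.814 over 10 pairs (-0.642 to 0.642 over 30 pairs of other numbers), so numbers were taken as pairs. Leptin replicate 2 was an exception, closer to fed replicate 3 (0.642) and fasted replicate 3 (0.62) than to fasted replicate 2 (0.536). In POMC RNA the same-number r was 0.733 to 0.770. With 2 libraries a group the values for other numbers are the exact negatives, so they add no separate evidence. Sorted nuclei are paired by their shared pool (r 0.0988), and for the feeding ATAC-seq libraries r was -0.00228 to 0.165, so these share only a number. Where the block changes a call its value stands beside the result.

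Genes and lists were chosen with earlier results of these data known. The text names all 10 genes, list genes called in AgRP neurons, the start-site peaks, and in each ATAC-seq comparison up to 4 called peaks each way with the largest changes whose libraries do not overlap. Other peaks, motif shares by call, the shared promoter runs and fits without the libraries high in Slc1a2 were chosen after seeing the data. Gene positions are from GENCODE and promoters from RefSeq (GRCm38.p6). CUT&RUN files and normalised tables were not used. Python 3.11.15 with pandas 2.3.3 drew the rest.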

Additional observations from a re-analysis of the deposited data

Results flagged for a closer look

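In the groups of 4 AgRP RNA libraries, 18 combinations of gene and group were examined for 1 library far from the others, and 2 stood out, where chance gives about 1 in 20. Foxo3 was at 47.34 CPM in leptin replicate 4, and Igf1r was at 219.26 CPM in fasted replicate 4. Both libraries are of the replicate with high Slc1a2.

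The responses of AgRP and POMC neurons differed in the fit with the replicate number as a block for 2 genes. The fasting effect on Irs1, AgRP minus POMC, was -0.5641 on the log2 scale, and the leptin effect on Foxo1 was -0.6113. Neither passed the test without the block.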

How the results depend on the processing

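With the replicate number as a block, 1 of the 9 genes was called on fasting (Foxo1) and 1 for leptin against fed (Irs4); 1 gene was called for each difference between neuron types, 1 peak for leptin against fasted (where numbers do not pair the ATAC-seq libraries), 1 other insulin pathway gene and 7 FOXO targets on fasting. The block changed no other count by over 1.5 times. No paired analysis was possible for fed AgRP against POMC libraries because they share only 1 number. Without the libraries high in Slc1a2, 1 gene was called for leptin against fed, 2 other pathway genes on fasting and 2 FOXO targets after leptin; with the block as well, 1 gene was called for leptin against fasted, 2 for leptin against fed, 3 other pathway genes and 8 FOXO targets on fasting, and 2 after leptin. DESeq2 called 1 gene for leptin against fed, 11 peaks between sorted nuclei and 1 other pathway gene on fasting. With all 3 states, 3 genes were called between neuron types. Windows of 10 and 100 kb gave 7 and 36 peaks between sorted nuclei, 5 and 30 on fasting and, at 100 kb, 3 after leptin, where starts of any transcript gave 2. After leptin, library size alone gave 0 other pathway genes, and no filter or no minimum fold 2 FOXO targets. The direction turned for Akt2 on fasting with library size alone (-0.021) and for Irs1 after leptin without the high Slc1a2 libraries (-0.046, with the block -0.045). The cause was not tested.

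Leaving out 1 library at a time gave 0 to 1 genes on fasting and between fed neuron types, 9 to 18 peaks between sorted nuclei, 7 to 13 on fasting and 0 to 1 after leptin, 0 to 2 and 0 to 1 other pathway genes, and 2 to 4 and 1 to 2 FOXO targets. Log2 fold changes that turned ran on fasting from -0.34 to 0.54 for Igf1r, -0.024 to 0.22 for Pik3r1, -0.054 to 0.14 for Akt2 and -0.32 to 0.031 for Foxo3, and after leptin from -0.44 to 0.51 for Igf1r, -0.26 to 0.067 for Pik3r1, -0.24 to 0.15 for Foxo3 and -0.061 to 0.17 for Irs1.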
